A study of Arabidopsis thaliana with 40 samples.

Results

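Root messenger RNA of the double mutant bz1728 was compared with that of the wild type (wt) in Arabidopsis thaliana seedlings. The comparison uses 8 of the 40 libraries of the series, 4 of bz1728 root and 4 of wt root, chosen by the tissue and genotype in their labels, and covers every gene with enough counts to be tested. The series sequenced root and shoot of 5 genotypes separately. The wt group is the Col-0 accession. The bz1728 group, written bzip1728 in the genotype label, carries the T-DNA insertions SALK_004048 and SALK_132285 in BZIP17 and BZIP28, and the labels do not say which insertion lies in which gene. Both groups were grown alike and untreated, on half-strength GM agar, with 16 h of light, a temperature of 22 °C and a humidity of 65%, after 3 d of cold at 4 °C. For the age of the seedlings the protocol states 12 d, and the stage label states 13 d from sowing. The labels describe the samples as repeats and do not say that these came from separate plants or plates. The p-values therefore measure the spread between such samples, which may be partly technical. That spread was estimated over all 20 root libraries of the 5 genotypes, not only over the 8 compared. Only 1 double mutant line was sequenced.

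BZIP17 and BZIP28 are membrane-anchored transcription factors of the endoplasmic reticulum (ER). When unfolded proteins accumulate, both move to the Golgi, are cut by the site-1 and site-2 proteases, and their freed domains enter the nucleus to switch on genes for chaperones and other parts of the secretory pathway. A second arm of this unfolded protein response (UPR) runs through the ER kinase and ribonuclease IRE1, which splices the messenger RNA of another factor, BZIP60. In roots the response is known for its part in elongation growth as well as in stress.

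Library totals were 3.53 to 7.27 M estimated counts in bz1728 root and 4.06 to 8.2 M in wt root. Levels are counts scaled to a common library total (CPM) with TMM factors, and a gene is called higher or lower at a Benjamini-Hochberg adjusted p under 0.05 in edgeR's quasi-likelihood test. The correlation of log CPM across genes was 0.978 to 0.986 between bz1728 libraries, 0.980 to 0.989 between wt libraries and 0.906 to 0.943 between the genotypes. The endodermis gene CASP1, at 178 to 231 TPM in bz1728 root and 228 to 268 TPM in wt root, was at most 0.338 TPM in any shoot library of these genotypes. BGLU23, at 4173 to 5248 TPM in bz1728 root and 6289 to 6715 TPM in wt root, was at 147 to 253 TPM in bz1728 shoot and 163 to 396 TPM in wt shoot. Root markers did not all lean the same way between the genotypes. PIN2 was at 56.5 to 66.3 TPM in bz1728 root and 38.8 to 50.8 TPM in wt root. RHD6 was at 31.6 to 43.0 and 11.9 to 20.1 TPM, and PHT1;1 at 136 to 192 and 350 to 420 TPM, in the same order. IRT1 and NRT2.1 overlapped, and NRT2.1 was at most 8.67 TPM in root. Genes of green tissue were present at a low level in root: the summed TPM (transcript levels corrected for length) of 21 photosynthesis genes was 428 to 717 in bz1728 root and 836 to 896 in wt root, against 52553 to 63811 in the shoots. The green-tissue markers LHCB1.1, LHCB2.1, LHCA1, RBCS1A and RCA were all above 0 in every root library of these genotypes. RBCS1A, a subunit gene of the carbon-fixing enzyme, was at 21.0 to 53.3 TPM in bz1728 root and 67.8 to 82.1 TPM in wt root. LHCA1 was at 11.1 to 23.1 TPM in bz1728 root and 30.6 to 33.5 TPM in wt root. The other markers overlapped between the genotypes. LHCB1.1 was at 4.36 to 8.15 TPM in bz1728 root and 3.05 to 5.54 TPM in wt root. LHCB2.1 was at 14.3 to 34.5 and 23.9 to 29.5 TPM, and RCA at 36.2 to 84.6 and 70.0 to 86.0 TPM, in the same order. The part of green tissue RNA in the results was not tested. In tissue samples, fewer cells of a type and less RNA per cell cannot be told apart.

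The root transcriptomes differed in many genes. Of 18745 genes tested, 7290 were called (38.9%), 3417 higher in bz1728 (18.2%) and 3873 lower (20.7%). Counts for gene groups below are to be read against these shares and against a median log2 fold change of 0.02 over all genes tested. Most differences were moderate, with a median absolute log2 fold change of 0.58 among called genes. At least 2-fold differences were found in 2000 called genes, 728 higher (3.88%) and 1272 lower (6.79%). In 3230 genes (17.2%) all 4 bz1728 libraries lay above all 4 wt libraries, and in 3549 (18.9%) they all lay below.

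The mutated genes were checked first. BZIP28 (AT3G10800) had 0, 0, 0 and 0 CPM in bz1728 and 67.5, 76.2, 70 and 73 CPM in wt. No count fell on it in any bz1728 root library, which puts it at least 542-fold lower against 3 counts over the group. BZIP17 (AT2G40950) had 5.47, 6.73, 5.99 and 4 CPM in bz1728 and 55, 50, 49.1 and 52.8 CPM in wt, a residual level that did not overlap wt (log2 fold change -3.17 ± 0.12, adjusted p = 3.8e-21). Next to BZIP28, the RING finger genes AT3G10810 and AT3G10815 also had no counts in bz1728 root, and were at least 281-fold and 57.1-fold lower. In shoot AT3G10810 had means of 0.0352 CPM in bz1728 and 29.3 CPM in wt (adjusted p = 1.4e-16). Farther along on that side, AT3G10820, a TFIIS family gene, had 17, 15.7, 14.8 and 16.3 CPM in bz1728 and 19.3, 20.4, 25.9 and 19.8 CPM in wt (log2 fold change -0.41 ± 0.13, adjusted p = 0.0091). Its call did not hold without wt replicate 3 (adjusted p = 0.052). On the other side of BZIP28, AT3G10770 was slightly higher (log2 fold change 0.18 ± 0.07, adjusted p = 0.042), a call also lost without wt replicate 3 (adjusted p = 0.11). AT3G10780 and AT3G10790, on that other side, held too few counts to be tested. Beside BZIP17, the ethylene receptor gene ERS1 (AT2G40940) had 131, 134, 116 and 147 CPM in bz1728 and 99.8, 91, 87.3 and 81.8 CPM in wt (log2 fold change 0.56 ± 0.08, adjusted p = 2.2e-07). Its groups did not overlap. The neighbour MYBC1 was higher as well (log2 fold change 0.49 ± 0.11, adjusted p = 0.00031), whereas UBP5, AT2G40935 and AT2G40960 near BZIP17 were not called. Whether the loss of AT3G10810 and AT3G10815 transcripts has a part in the differences described below was not tested.

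UPR factors are known to bind the ER stress response elements, and promoters of 5 genes whose levels moved in opposite directions are printed here because they carry the same element. ERSE-I was searched as CCAAT and CACG with 10 bases of any kind between them, on both strands from 250 bases before to 50 bases after the start of the transcript that the deposited tables hold for each gene, as RefSeq's TAIR10.1 annotation places it. RefSeq also lists transcripts of BIP3 and SEC31A that start farther upstream. The deposited tables name no build, but the 27442 transcripts matched by ID had the same lengths as in that annotation. Capitals mark ERSE-I, printed 5′ to 3′ on the gene's strand. Its CACG can overlap the G-box CACGTG. The regions are chr1:2931842-2932041, minus strand for BIP3, chr1:29126528-29126647, plus strand for PDIL1-2, chr5:19135752-19135951, plus strand for BI1, chr1:21092710-21092829, minus strand for CRT1 and chr5:749951-750100, plus strand for P58IPK. The first 3 genes were higher in bz1728 root and the last 2 were lower.
BIP3: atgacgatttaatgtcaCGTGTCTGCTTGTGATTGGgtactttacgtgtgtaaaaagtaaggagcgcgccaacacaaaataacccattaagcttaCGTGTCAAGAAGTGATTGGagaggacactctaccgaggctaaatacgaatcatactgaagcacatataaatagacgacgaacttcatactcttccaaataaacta
PDIL1-2: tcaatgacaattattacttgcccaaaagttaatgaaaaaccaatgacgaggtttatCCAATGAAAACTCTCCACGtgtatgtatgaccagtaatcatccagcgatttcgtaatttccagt
BI1: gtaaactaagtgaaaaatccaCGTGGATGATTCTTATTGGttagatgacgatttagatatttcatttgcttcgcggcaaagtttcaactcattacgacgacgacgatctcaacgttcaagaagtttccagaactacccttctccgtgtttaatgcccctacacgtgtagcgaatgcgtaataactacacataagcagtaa
CRT1: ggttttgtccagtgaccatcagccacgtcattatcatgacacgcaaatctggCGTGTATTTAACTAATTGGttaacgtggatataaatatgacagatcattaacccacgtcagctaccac
P58IPK: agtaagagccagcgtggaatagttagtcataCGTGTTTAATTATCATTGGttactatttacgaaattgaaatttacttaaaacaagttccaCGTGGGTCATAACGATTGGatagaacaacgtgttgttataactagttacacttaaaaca

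The elements begin 183 and 105 bases before that transcript start in BIP3, 64 before it in PDIL1-2, 179 before it in BI1, 68 before it in CRT1, and 119 and 59 before it in P58IPK. The CRT1 stretch also holds another UPR element that was searched, the UPRE core, at 98 and 16 bases before the start, left in lower case. ERSE-I occurred in 230 of 27441 promoters (0.838%). Of the 201 such genes that were tested, 43 were higher (21.4%) and 46 lower (22.9%), with a median log2 fold change of -0.02. These shares were near the 18.2% higher and 20.7% lower among all genes tested. Among 98 promoters of 7 secretory pathway lists described below, all but that of phospholipid synthesis, 16 held it (16.3%), and 7 of these genes were higher and 8 lower. Genes with an ERSE-I match thus lay in both directions, as did the genes tested at large. Of 355 tested genes with the UPRE core, 54 were higher (15.2%) and 96 lower (27%). The gene with the highest fitted fold change in root, SEC31A, had no ERSE-I match in its window, and in the 250 bases before the start of its deposited transcript (chr1:6489059-6489308, plus strand) the capitals mark an ACGT core, which 49.9% of all promoters hold.
SEC31A: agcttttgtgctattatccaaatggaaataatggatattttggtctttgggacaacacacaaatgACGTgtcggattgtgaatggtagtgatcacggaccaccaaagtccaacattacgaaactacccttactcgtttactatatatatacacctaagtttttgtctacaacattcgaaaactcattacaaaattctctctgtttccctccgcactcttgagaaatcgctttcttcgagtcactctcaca

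Among the UPR sensors and regulators, the other 4 tested transcription factors were higher in bz1728 root. Of 12 tested members, 6 were higher and 2, the mutated genes, were lower. BZIP49, of the same bZIP family as the mutated genes, held too few counts to be tested, with 13 over bz1728 and 4 over wt, and ranged over 0 to 1.43 CPM in bz1728 and 0.122 to 0.25 CPM in wt. BZIP60 (AT1G42990), the factor spliced by IRE1, had 144, 150.1, 136 and 158 CPM in bz1728 and 35.8, 38.1, 41.2 and 40.1 CPM in wt (log2 fold change 1.92 ± 0.07, adjusted p = 3.8e-21). NAC062 (AT3G49530), a membrane-tethered NAC factor of the UPR, had 102, 104, 83.6 and 109 CPM in bz1728 and 35.5, 37.9, 44.3 and 45 CPM in wt (log2 fold change 1.29 ± 0.09, adjusted p = 2.1e-14). NAC103 (AT5G64060), a NAC factor that acts downstream of BZIP60, had 29.8, 42.7, 27.8 and 31.2 CPM in bz1728 and 0, 0.979, 0.836 and 0.262 CPM in wt (log2 fold change 5.81 ± 0.27, adjusted p = 1e-18). In each of these genes the lowest bz1728 library was above the highest wt library. NAC089 (AT5G22290), a membrane-tethered NAC factor linked to cell death under ER stress, ranged over 18.9 to 23.1 CPM in bz1728 and 8.15 to 10.3 CPM in wt (log2 fold change 1.15 ± 0.13, adjusted p = 9.1e-09). The cochaperone gene BAG7 was higher by a smaller step (log2 fold change 0.38 ± 0.07, adjusted p = 1.7e-05). BI1 (AT5G47120), which encodes a conserved suppressor of cell death in the ER membrane, had 321, 345, 308 and 352 CPM in bz1728 and 146, 141, 155 and 156 CPM in wt (log2 fold change 1.15 ± 0.06, adjusted p = 5.8e-17). The genes that act upstream did not pass the test: IRE1A had 78.3, 69.4, 68.5 and 85.5 CPM in bz1728 and 78.3, 73.5, 89.2 and 79.3 CPM in wt (adjusted p = 0.51), and IRE1B, the site-1 protease gene S1P and AT4G20310, a peptidase M50 family gene, had adjusted p-values of 0.83, 0.97 and 0.36.

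The stress-type UPR targets divided into a rising and a falling set. Of 9 tested, 5 were higher, 3 lower and 1 not called, with a median of 2.48. With the stricter filter of at least 50 counts in 4 libraries, which tests fewer genes, 3 were higher. SEC31A (AT1G18830), which encodes a coat subunit of ER export vesicles, had 802, 904, 679 and 777 CPM in bz1728 and 0.25, 0, 0.209 and 0.655 CPM in wt. The wt libraries held close to none of this transcript (log2 fold change 11.32 ± 0.23, adjusted p = 2.2e-20). BIP3 (AT1G09080), the inducible member of the BiP family of ER Hsp70 chaperones, had 21.5, 21.2, 13.9 and 11.1 CPM in bz1728 and 0, 0, 0 and 0 CPM in wt. With no counts in wt it was at least 149-fold higher. ERDJ3A (AT3G08970), an ER J-domain cochaperone, had 154, 157, 143 and 139 CPM in bz1728 and 18.8, 14.4, 14 and 15.5 CPM in wt (log2 fold change 3.26 ± 0.13, adjusted p = 4.3e-17). ERO1 (AT1G72280), the oxidase that recharges disulfide isomerases, had 53.7, 64.7, 53.9 and 48 CPM in bz1728 and 13, 9.3, 8.57 and 9.57 CPM in wt (log2 fold change 2.48 ± 0.13, adjusted p = 1.7e-17). The small GTPase gene SARA1A, which belongs to the family that starts COPII coat assembly, was higher from a low level, with 5.56 to 9.48 CPM in bz1728 and 0.418 to 0.917 CPM in wt (log2 fold change 3.37 ± 0.33, adjusted p = 2.7e-10).

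In the other direction went ERDJ3B (AT3G62600), whose product works with BiP and SDF2 in ER quality control, with 69.5, 80.9, 70.2 and 68.3 CPM in bz1728 and 164, 160.1, 145 and 143 CPM in wt (log2 fold change -1.07 ± 0.07, adjusted p = 4.6e-15). Its partner SDF2 (AT2G25110) had 44.3, 43.4, 38.7 and 47.2 CPM in bz1728 and 88.5, 81.4, 79.4 and 82.2 CPM in wt (log2 fold change -0.93 ± 0.08, adjusted p = 1.7e-11). In both genes every bz1728 library was below every wt library. TIN1 (AT5G64510), named for its induction by the glycosylation inhibitor tunicamycin, was lower too, with 3.64 to 8 CPM in bz1728 and 10.7 to 13.8 CPM in wt (log2 fold change -1.18 ± 0.21, adjusted p = 2.3e-05). UTR1, a nucleotide sugar transporter gene, was not called in root (adjusted p = 0.32).

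**Figure D1:**
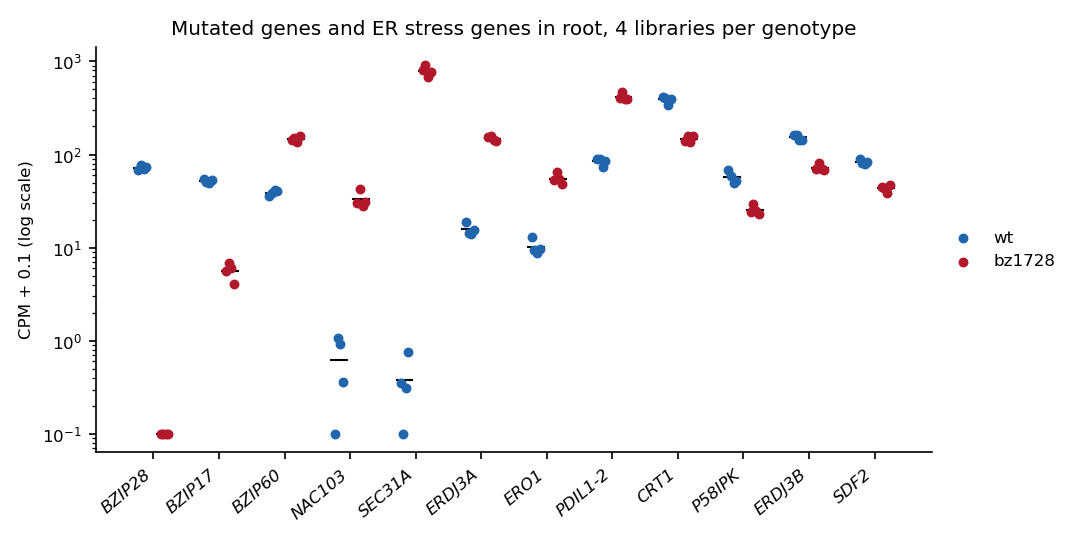
Levels of the mutated genes and 10 ER stress genes in root, in CPM plus 0.1 on a log axis, with a point for each of 4 libraries per genotype and a line at the mean. NAC103 and SEC31A were below 1 CPM in every wt library, and CRT1, P58IPK, ERDJ3B and SDF2 were lower in all bz1728 libraries than in any wt library.

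Constitutive folding genes differed by kind. Of 5 lectin chaperone genes 4 were lower and none higher. Of 7 genes for Hsp70, Hsp90 and their partners 3 were lower and 1 higher. Of 7 glycan processing genes 1 was lower and 6 were not called. Of 19 ER chaperone genes, 8 were lower and 1 higher, with a median of -0.09, and their summed level was 2016 ± 101 TPM in bz1728 and 2567 ± 197 TPM in wt (SD, n = 4). Without bz1728 replicate 4, 2 were higher. CRT1 (AT1G56340), a calreticulin that holds glycoproteins until they fold, had 141, 159, 135 and 158 CPM in bz1728 and 419, 404, 343 and 398 CPM in wt (log2 fold change -1.40 ± 0.07, adjusted p = 4.9e-18). Its close relative CRT1b (AT1G09210) was lower too (log2 fold change -0.90 ± 0.07, adjusted p = 2.7e-12). P58IPK (AT5G03160), a J-domain cochaperone of BiP, had 24.2, 29.1, 24.4 and 23.2 CPM in bz1728 and 67.5, 58.9, 49.5 and 52.4 CPM in wt (log2 fold change -1.16 ± 0.10, adjusted p = 5e-12). In all 3 genes the groups were apart. Calnexin CNX1 ranged over 306 to 352 CPM in bz1728 and 395 to 471 CPM in wt (log2 fold change -0.44 ± 0.06, adjusted p = 8.3e-07). BIP1 was modestly lower (log2 fold change -0.37 ± 0.07, adjusted p = 2.2e-05), but 35% of its 31-base words are shared with other transcripts, so its estimate and that of BIP2, a copy named after its value was seen (adjusted p = 0.13), are uncertain. The only member called higher was AT4G16660, an Hsp70 family gene, with 369 to 424 CPM in bz1728 and 284 to 325 CPM in wt (log2 fold change 0.35 ± 0.06, adjusted p = 3e-05).

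Disulfide isomerases, which form and shuffle protein disulfide bonds, moved both ways, with 4 of 10 higher and 2 lower. PDIL1-2 (AT1G77510) had 405, 473, 396 and 391 CPM in bz1728 and 89.8, 89.8, 72.7 and 84.8 CPM in wt (log2 fold change 2.30 ± 0.08, adjusted p = 8.9e-23). PDIL2-3 had 333, 359, 292 and 306 CPM in bz1728 and 119, 116, 115 and 116 CPM in wt (log2 fold change 1.47 ± 0.07, adjusted p = 1.1e-17). PDIL1-1, of the same subfamily as PDIL1-2, moved against it, with 245, 254, 239 and 237 CPM in bz1728 and 352, 332, 299.7 and 315 CPM in wt (log2 fold change -0.41 ± 0.06, adjusted p = 9e-07). PDIL1-3 was lower too (log2 fold change -0.56 ± 0.08, adjusted p = 8.3e-07). The changes of at least 2-fold were those of PDIL1-2 and PDIL2-3.

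Of 16 genes of the translocon and N-glycosylation, 5 were higher and 3 lower. The largest change was in AT1G29310, a SecY family gene for the protein-conducting channel, with 238, 287, 233 and 246 CPM in bz1728 and 66.3, 71.8, 59.8 and 58.5 CPM in wt (log2 fold change 1.97 ± 0.07, adjusted p = 2.1e-21). Other parts of the same machinery went down: AT5G50460, which encodes a Sec61 gamma subunit, had 46.9, 51.4, 40 and 44.3 CPM in bz1728 and 69.5, 66.8, 70.2 and 68.2 CPM in wt (log2 fold change -0.58 ± 0.08, adjusted p = 4.4e-07). AT1G61790, an oligosaccharyltransferase family gene, was lower as well (log2 fold change -0.62 ± 0.07, adjusted p = 1.7e-08). The COPII coat, which carries cargo from the ER, had 7 of 16 members higher and 1 lower. SAR1B (AT1G56330), the GTPase that starts coat assembly, had 246, 262, 236 and 246 CPM in bz1728 and 142, 146, 130.4 and 144 CPM in wt (log2 fold change 0.82 ± 0.06, adjusted p = 9.3e-13). CEF, a SEC24 family coat gene, had 239, 269, 225 and 249.6 CPM in bz1728 and 133, 136, 135 and 150.1 CPM in wt (log2 fold change 0.82 ± 0.06, adjusted p = 6.1e-13). The member that was lower, PHF1, is needed for ER exit of phosphate transporters (log2 fold change -0.36 ± 0.10, adjusted p = 0.0035).

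ER-associated degradation sends misfolded proteins to the proteasome, and 4 of its 14 genes were higher and 2 lower. OS9, a lectin that recognises misfolded glycoproteins, had 58.3, 60.6, 52.6 and 46.6 CPM in bz1728 and 31.8, 27.7, 29 and 27.1 CPM in wt (log2 fold change 0.94 ± 0.09, adjusted p = 6.8e-11). EBS5, an adaptor of the HRD1 ubiquitin ligase, had 136, 131, 132 and 133 CPM in bz1728 and 90, 91.2, 86.3 and 96.5 CPM in wt (log2 fold change 0.54 ± 0.07, adjusted p = 2.8e-08). DER1 was higher (log2 fold change 0.47 ± 0.09, adjusted p = 9.2e-05) and the ligase gene HRD1B lower (log2 fold change -0.28 ± 0.09, adjusted p = 0.0084). Of 9 phospholipid synthesis genes 3 were higher and none lower, among them the fatty acid desaturase gene FAD3 (log2 fold change 0.53 ± 0.07, adjusted p = 1.7e-07). Of 10 autophagy genes, 2 were higher and 3 lower, but 1 was higher without bz1728 replicate 1, 3 or 4 or wt replicate 1, 2 or 4.

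**Figure D2:**
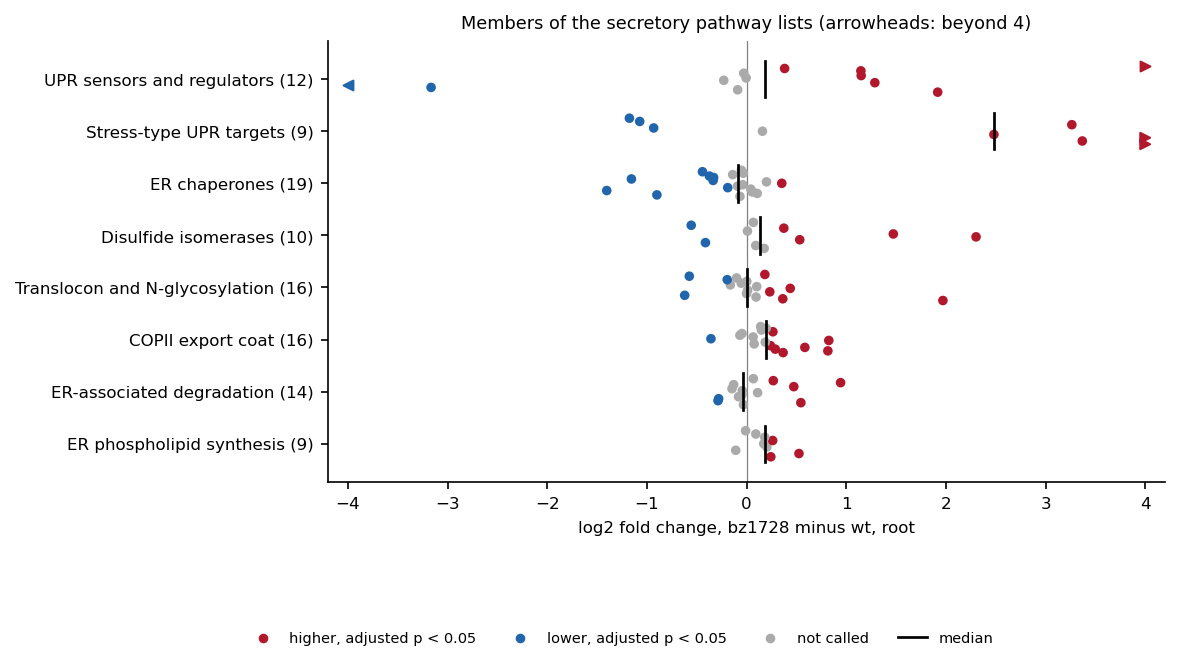
Log2 fold changes (bz1728 minus wt, root) of the tested members of 8 secretory pathway lists, with a point per gene coloured by its call, arrowheads for values beyond 4 and a black line at each list's median. Stress-type UPR targets had a median of 2.48, ER chaperones one of -0.09.

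To learn which of these changes were unequal between the organs, the bz1728 effect in root was tested against that in shoot. The 8 shoot libraries of bz1728 and wt share none with root. The shoot contrast was fitted on the shoot libraries of all 5 genotypes, and the difference between organs on all 40 libraries. In shoot 1460 of 17382 tested genes were higher in bz1728 (8.4%) and 1638 lower (9.42%), and the effects were called unequal in 4594 of 20015 genes (23%). Of the 2790 genes called higher in root that were tested in shoot, 324 were higher there too (11.6%) and 250 were lower there, and of the 1311 called higher in shoot and tested in root the 324 were 24.7%. Of 3024 genes lower in root, 501 were lower in shoot (16.6%) and 305 higher, and the 501 were 34.6% of the 1448 lower in shoot. The shoot counts depended on the setting: 2348 genes were higher when scaled by library total, 2931 were higher and 823 lower with limma on TPM, and 1041 were lower without bz1728 replicate 2.

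In the 2 UPR lists, 13 of the 21 genes tested in both organs had unequal effects. SEC31A was higher in shoot by 3.08 ± 0.30, adjusted p = 2.4e-07 on the log2 scale, and the effect in root was larger by 8.26 ± 0.63, adjusted p = 9e-12. BZIP60 was also higher in shoot (0.90 ± 0.11, adjusted p = 7.2e-06), and more so in root (difference 1.06 ± 0.13, adjusted p = 4.9e-08). ERO1 had a log2 fold change of -0.07 ± 0.33, adjusted p = 0.91 in shoot, and differed from root by 2.62 ± 0.32, adjusted p = 2.7e-08. BIP3 was at 0.348 ± 0.416 CPM in bz1728 shoot and 3.21 ± 2.36 CPM in wt shoot (SD, n = 4), which did not pass the test (adjusted p = 0.11). CRT1, P58IPK and ERDJ3B, lower in root, were lower in shoot as well, with log2 fold changes of -0.94 ± 0.07, adjusted p = 1.2e-09, of -0.89 ± 0.12, adjusted p = 1.6e-05 and of -1.20 ± 0.12, adjusted p = 2.9e-07. For P58IPK and ERDJ3B the difference between organs was not called (-0.23 ± 0.15, adjusted p = 0.31, and 0.17 ± 0.14, adjusted p = 0.43). CRT1 fell more in root (difference -0.42 ± 0.10, adjusted p = 0.0014). CNX1 and BIP1 fell more in shoot (differences 0.42 ± 0.11, adjusted p = 0.0034, and 0.51 ± 0.12, adjusted p = 0.0019). AT4G16660, higher in root, was lower in shoot (log2 fold change -0.50 ± 0.11, adjusted p = 0.0023).

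**Figure D3:**
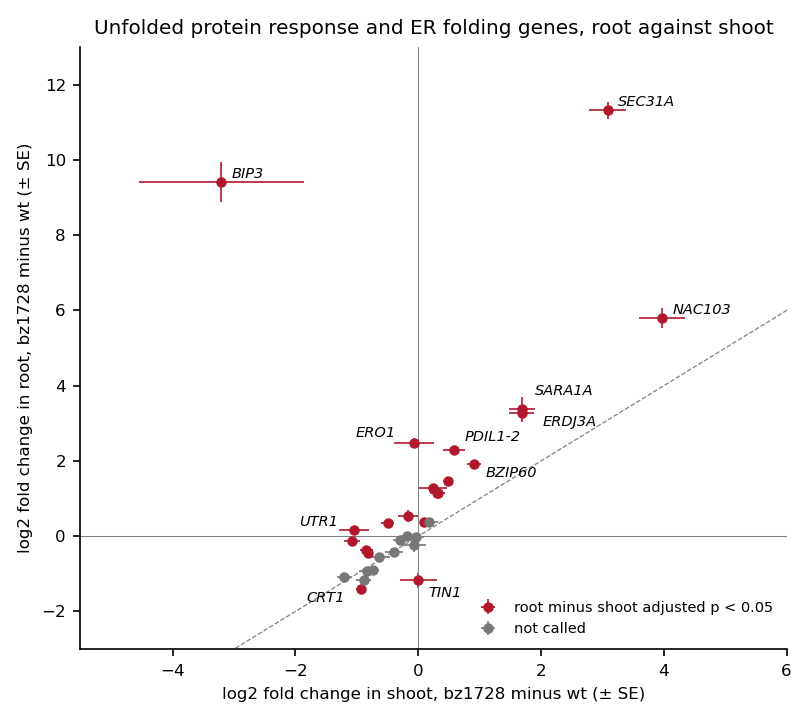
Log2 fold change (bz1728 minus wt, ± SE) in root against shoot for 32 genes, with the dashed line where both are equal. They are members of the UPR, chaperone and disulfide isomerase lists other than the mutated genes. Chaperones and isomerases are shown only for the 6 of each list with the smallest p in root, and for BIP2. The 21 red points were called unequal between organs, against 23% of all genes tested. Because of that choice by root result, the share of red points does not stand for the whole lists. SEC31A, ERO1 and PDIL1-2 lie above the line, whereas P58IPK, ERDJ3B and SDF2 are among those not called.

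Jasmonate, a fatty acid hormone of wound and defence responses that also restrains root growth, had most of its genes higher in bz1728 root. Of 12 tested synthesis genes, 11 were higher and 1 lower, with a median of 1.20, and their summed levels were 614, 731, 566 and 643 TPM in bz1728 and 374, 390.3, 384 and 387 TPM in wt. AOS (AT5G42650), the allene oxide synthase of the committed step, had 58.9, 78.6, 50.1 and 64.3 CPM in bz1728 and 23.5, 25.1, 27 and 24.6 CPM in wt (log2 fold change 1.34 ± 0.15, adjusted p = 2.1e-07). AOC3, an allene oxide cyclase of the next step, had 92.9, 129, 83.2 and 119 CPM in bz1728 and 55.8, 50.3, 41.8 and 48 CPM in wt (log2 fold change 1.12 ± 0.11, adjusted p = 1.2e-08). OPR3, the reductase that follows, had 62, 77.1, 57.8 and 59.2 CPM in bz1728 and 20.8, 32.1, 25.5 and 25 CPM in wt (log2 fold change 1.29 ± 0.12, adjusted p = 4.9e-10). The lipoxygenase genes LOX2 and LOX3, which open the pathway and were named after their values were seen, were near 0 in wt. LOX2 ranged over 2.88 to 8.86 CPM in bz1728 and 0 to 0.612 CPM in wt (log2 fold change 4.71 ± 0.64, adjusted p = 8e-07), and LOX3 had a ratio of 55.3 (95% counting interval 18.5 to 271) over 3 counts in wt.

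JAZ proteins repress jasmonate responses and are themselves induced by the hormone, and of 15 signalling genes 9 were higher and 4 lower. With limma on TPM 1 was lower. JAZ10 (AT5G13220) had 33.8, 55.2, 19.7 and 38.9 CPM in bz1728 and 2, 0.367, 1.25 and 0.917 CPM in wt (log2 fold change 5.20 ± 0.36, adjusted p = 2.3e-10). JAZ5 had 11.2, 18.1, 7.92 and 11.4 CPM in bz1728 and 2.75, 2.69, 2.72 and 3.67 CPM in wt (log2 fold change 2.04 ± 0.25, adjusted p = 1.9e-08). MYC2, the main transcription factor of the pathway, had 153, 176, 160.5 and 174 CPM in bz1728 and 85, 96.7, 81.9 and 86.4 CPM in wt (log2 fold change 0.92 ± 0.09, adjusted p = 5.6e-10), whereas its relative MYC4 was lower (log2 fold change -0.64 ± 0.10, adjusted p = 1.3e-06). Among response genes, TAT3 (AT2G24850), a tyrosine aminotransferase, had 209.6, 481, 105 and 281 CPM in bz1728 and 0.5, 1.47, 0.836 and 0.917 CPM in wt (log2 fold change 8.03 ± 0.65, adjusted p = 4.6e-08). JRG21, a jasmonate-regulated oxidase gene that takes part in turnover of the hormone, had 8.49, 22.9, 12.4 and 17.4 CPM in bz1728 and 0, 0, 0 and 0.131 CPM in wt. Its wt group held 1 count, and the ratio was 379 (95% counting interval 67.5 to 15000.0). In AOS, AOC3, JAZ10, JAZ5, TAT3 and JRG21, bz1728 replicate 2 was the highest library, and without it 11 synthesis genes were still called higher. No synthesis gene was lower without bz1728 replicate 2 or wt replicate 3.

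The classical jasmonate markers VSP2 and VSP1 moved the opposite way. VSP2 (AT5G24770), a vegetative storage protein gene, had 9.93, 14.7, 19.5 and 19.2 CPM in bz1728 and 99.5, 79.9, 96.3 and 97.6 CPM in wt (log2 fold change -2.61 ± 0.32, adjusted p = 5.1e-06). VSP1 had 35.7, 56.5, 56.3 and 50.6 CPM in bz1728 and 103, 85, 87.6 and 92.8 CPM in wt (log2 fold change -0.89 ± 0.16, adjusted p = 0.00031). All bz1728 libraries were below all wt libraries in both. The effects were unequal between organs: the difference of root minus shoot was 5.47 ± 0.51, adjusted p = 6.5e-11 for JAZ10, 1.57 ± 0.23, adjusted p = 4.8e-06 for AOS and -4.13 ± 0.50, adjusted p = 2.7e-07 for VSP2.

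Root hair wall and growth genes were higher in bz1728. Root hairs are tip-growing extensions of epidermal cells whose walls are rich in extensins and proline-rich proteins. All 18 tested genes of hair growth and wall were higher in bz1728 root, with a median of 1.01. Their summed levels were 2362, 2559, 2406 and 3398 TPM in bz1728 and 1082, 1072, 1150.1 and 1053 TPM in wt. PRP1 (AT1G54970), a proline-rich wall protein gene, had 188, 253, 217 and 311 CPM in bz1728 and 13.3, 14.7, 9.61 and 11.5 CPM in wt (log2 fold change 4.27 ± 0.24, adjusted p = 3.9e-10). EXT12, an extensin, had 546, 653, 471 and 763 CPM in bz1728 and 29.8, 36.8, 37.8 and 27.3 CPM in wt (log2 fold change 4.20 ± 0.20, adjusted p = 7.9e-11). EXPA7, an expansin of hair initiation, had 83.2, 88.2, 81.5 and 128 CPM in bz1728 and 40, 34.5, 36.2 and 36.7 CPM in wt (log2 fold change 1.36 ± 0.13, adjusted p = 1.6e-08). COW1, a phosphatidylinositol transfer protein needed for hair tip growth, had 93.4, 111, 106 and 139.8 CPM in bz1728 and 44, 46, 46.8 and 42.2 CPM in wt (log2 fold change 1.32 ± 0.12, adjusted p = 1.1e-09). Replicate 4 was the highest bz1728 library in each of these genes and in the sum. Without it all 18 members were still called higher.

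Among 14 tested hair regulators, 4 were higher and 1 lower, all 5 of them regulators of hair growth. Of the 6 genes of non-hair fate and 2 of hair fate that were tested, none was called. RHD6 (AT1G66470), the factor that starts hair formation, had 28.4, 38.9, 32.1 and 32.6 CPM in bz1728 and 15.5, 18.1, 10.9 and 13.9 CPM in wt (log2 fold change 1.16 ± 0.13, adjusted p = 5.6e-09). RSL4, which sets hair length, had 27.2, 32, 24 and 48.6 CPM in bz1728 and 6.5, 9.06, 12.5 and 9.96 CPM in wt (log2 fold change 1.74 ± 0.18, adjusted p = 4.9e-09). LRL2 and LRL3, which belong to a further group of hair factors, were higher (0.62, adjusted p = 1.9e-07 and 0.79, adjusted p = 2.6e-06, log2). RSL2 was lower (log2 fold change -0.77 ± 0.21, adjusted p = 0.0052). The wall-loosening enzyme gene XTH12 also had higher levels, with 43.3 to 67.2 CPM in bz1728 and 5.25 to 11.3 CPM in wt (log2 fold change 2.68 ± 0.15, adjusted p = 2e-16). Of the 6 genes found by an extensin symbol in the annotation 5 were higher. Among them was EXT4, the most abundant named here, with 1557 to 1885 CPM in bz1728 and 888 to 1118 CPM in wt (log2 fold change 0.72 ± 0.13, adjusted p = 0.00024).

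**Figure D4:**
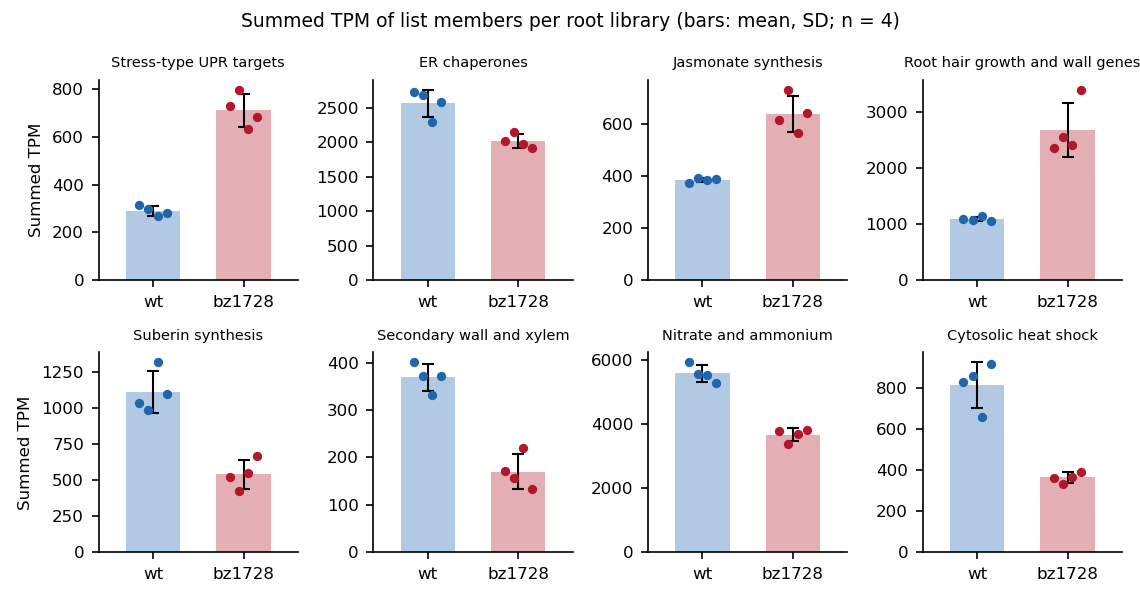
Summed TPM of the members of 8 gene lists in each root library, with bars at the mean, error bars of 1 SD and a point for each of 4 libraries per genotype. Root hair growth and wall genes stood at 2681 TPM in bz1728 and 1089 TPM in wt, suberin genes at 541 and 1111 TPM.

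Most suberin and secondary wall genes were lower, whereas Casparian strip genes moved both ways. Suberin, a wax-like polymer of endodermis and periderm walls, had 18 of 21 genes lower and 1 higher, with a median of -1.17. All 11 enzyme genes and all 3 transporter genes were lower. Of 7 MYB regulators 4 were lower, 1 higher and 2 not called. Summed levels of the 21 genes were 519, 425, 552 and 667 TPM in bz1728 and 1036, 986, 1321 and 1101 TPM in wt. GPAT5 (AT3G11430), an acyltransferase of suberin monomers, had 13.5, 11.8, 16.3 and 15.4 CPM in bz1728 and 36.5, 40.5, 46.6 and 45.5 CPM in wt (log2 fold change -1.60 ± 0.14, adjusted p = 7e-11). ABCG2, a transporter needed for the suberin barrier, had 21, 15.9, 21.6 and 24.9 CPM in bz1728 and 55, 52.7, 69.4 and 65 CPM in wt (log2 fold change -1.57 ± 0.13, adjusted p = 1.1e-10). FACT, a fatty alcohol caffeoyl-transferase, had 61.6, 48.8, 55.2 and 66 CPM in bz1728 and 135, 108, 156 and 129 CPM in wt (log2 fold change -1.19 ± 0.10, adjusted p = 7.4e-10). The member called higher was MYB92, a suberin transcription factor, named after its value was seen (log2 fold change 0.31 ± 0.10, adjusted p = 0.013). Its call did not hold without wt replicate 2 (adjusted p = 0.06).

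Of 12 genes for the Casparian strip, the lignin seal of the endodermis, 3 were higher and 5 lower. CASP4, a scaffold protein of the strip, was lower (log2 fold change -1.26 ± 0.15, adjusted p = 2.6e-08). MYB36, a factor that switches on scaffold genes of the strip, had 36.7, 43, 38.7 and 54 CPM in bz1728 and 28.8, 26.7, 28.2 and 25.7 CPM in wt (log2 fold change 0.65 ± 0.10, adjusted p = 2.4e-06), and SCR, which specifies the endodermis, was higher (log2 fold change 0.32 ± 0.09, adjusted p = 0.0036). The number lower was 3 without bz1728 replicate 1 or 2, or wt replicate 3.

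In secondary walls of xylem, 9 of 10 tested genes were lower and none higher, with a median of -1.07. CESA4 (AT5G44030), a cellulose synthase of secondary walls, had 23.9, 23.6, 29.3 and 14.6 CPM in bz1728 and 73, 74.6, 67.7 and 80.2 CPM in wt (log2 fold change -1.67 ± 0.18, adjusted p = 6.4e-07). Its partners CESA7 and CESA8 were lower too (-1.53, adjusted p = 1e-08 and -1.67, adjusted p = 2.2e-14, log2). IRX9, of xylan synthesis, had 6.91, 5.63, 6.85 and 4.29 CPM in bz1728 and 25.8, 19.6, 14.8 and 20.2 CPM in wt (log2 fold change -1.72 ± 0.16, adjusted p = 1.5e-10). The primary wall synthases CESA1, CESA3 and CESA6 had log2 fold changes of 0.00, -0.05 and -0.05 in root, and none was called (adjusted p = 0.99, 0.5 and 0.58). The laccase genes LAC4, LAC17 and LAC11, which polymerise lignin, were lower (-1.66, -1.57 and -1.45, log2). Monolignol methyltransferase genes were higher instead: OMT1 had 539.5 to 649.8 CPM in bz1728 and 328 to 414 CPM in wt (log2 fold change 0.69 ± 0.08, adjusted p = 6.5e-09) and CCoAOMT1 had 973 to 1129 CPM in bz1728 and 707 to 836 CPM in wt (log2 fold change 0.50 ± 0.06, adjusted p = 6e-08). The fasciclin-like arabinogalactan proteins FLA11 and FLA12, known from secondary walls, were lower (-1.78, adjusted p = 1.7e-10 and -2.58, adjusted p = 1.1e-12, log2).

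**Figure D5:**
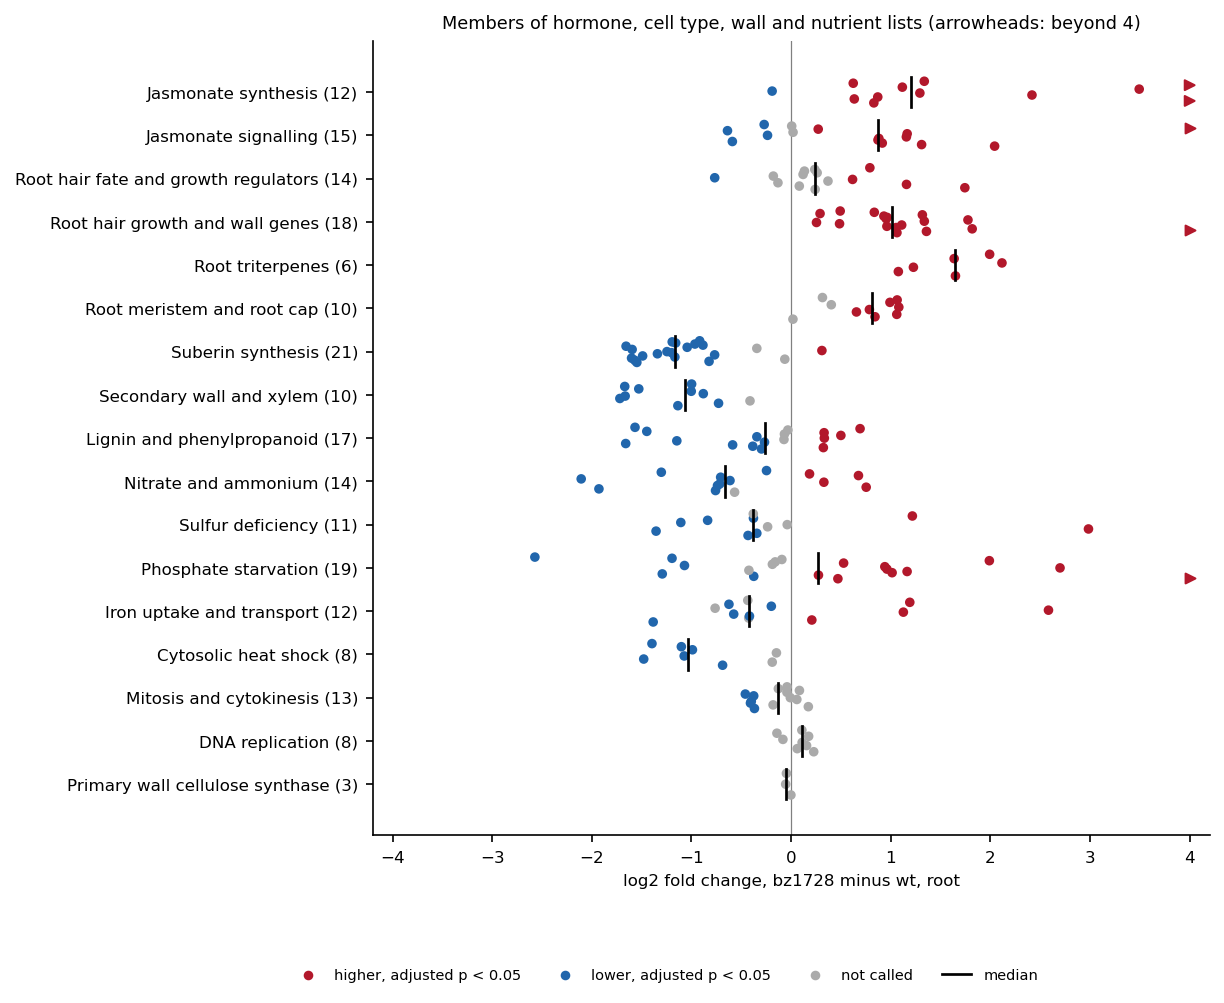
Log2 fold changes (bz1728 minus wt, root) of the tested members of lists for hormones, hairs, walls, nutrition, heat shock and cell division, coloured by call, with a black line at each median. The lists of root hair growth and wall genes (18 of 18 higher) and root triterpenes (6 of 6 higher) lie right of 0, and secondary wall genes (9 of 10 lower) lie left of it.

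Nutrient genes changed in both directions. Of 14 nitrate and ammonium genes 9 were lower and 4 higher, with summed levels of 3663 ± 203 TPM in bz1728 and 5586 ± 270.5 TPM in wt (SD, n = 4). The number higher was 2 without bz1728 replicate 4. NRT1.5 (AT1G32450), which loads nitrate into the xylem, had 423, 219, 368 and 322 CPM in bz1728 and 1118, 1532, 1157 and 1259 CPM in wt (log2 fold change -1.93 ± 0.20, adjusted p = 7.2e-07). AMT1;3, an ammonium uptake transporter, had 47.8, 32.6, 57.3 and 50.3 CPM in bz1728 and 197, 196, 193 and 209.6 CPM in wt (log2 fold change -2.11 ± 0.16, adjusted p = 1.7e-08). NIA2, a nitrate reductase, was higher, with 836, 768, 789.9 and 874 CPM in bz1728 and 551, 455, 477 and 457 CPM in wt (log2 fold change 0.75 ± 0.08, adjusted p = 1.1e-08), while NIR1, the nitrite reductase that acts after it, was lower (log2 fold change -0.61 ± 0.10, adjusted p = 1.7e-05). Of 11 sulfur deficiency genes 6 were lower and 2 higher, and the sulfate uptake transporter SULTR1;2 had 279, 212, 260.4 and 266 CPM in bz1728 and 692, 645, 623 and 638 CPM in wt (log2 fold change -1.36 ± 0.12, adjusted p = 2.5e-08).

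Iron genes were mixed as well. Of 12 genes of iron uptake and transport 4 were higher and 5 lower, of 8 deficiency regulators 4 were higher and 1 lower, and of 7 storage genes 3 were lower and none higher. The number of regulators higher was 1 without bz1728 replicate 1, and 2 without bz1728 replicate 3, wt replicate 3 or wt replicate 4, with limma on TPM, or with the other genotypes left out of the fit. Among them BHLH39 ranged over 30.4 to 50.2 CPM in bz1728 and 25.9 to 32.3 CPM in wt (log2 fold change 0.46 ± 0.16, adjusted p = 0.03), with groups that overlapped. FRU (AT2G28160), the bHLH factor also called FIT that drives iron uptake, had 13.8, 7.56, 14.5 and 11.4 CPM in bz1728 and 77, 68.4, 86.3 and 72.3 CPM in wt (log2 fold change -2.70 ± 0.19, adjusted p = 5.8e-10). Of its known targets, the reductase gene FRO2 had 61.3, 25.6, 63.1 and 36.3 CPM in bz1728 and 184, 151, 72.7 and 81.1 CPM in wt (log2 fold change -1.38 ± 0.36, adjusted p = 0.0059), and IRT1, the main uptake transporter and named after its values were seen, overlapped between the groups (adjusted p = 0.11). The FRO2 call did not hold when the other genotypes were left out of the fit (adjusted p = 0.05, rounded). IRT2 had 39.3, 47.4, 41.1 and 52.3 CPM in bz1728 and 7.25, 9.3, 8.15 and 5.11 CPM in wt (log2 fold change 2.58 ± 0.17, adjusted p = 1.4e-12). OPT3, which loads iron into phloem, was higher (log2 fold change 1.13 ± 0.08, adjusted p = 1.9e-13). VTL5, of the vacuolar iron transporter family, had 72.4, 32.1, 74.2 and 38.9 CPM in bz1728 and 389, 402, 420.0 and 423 CPM in wt (log2 fold change -2.90 ± 0.23, adjusted p = 3.3e-08).

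Phosphate starvation genes numbered 10 higher and 5 lower of 19 in root, against 15 higher and 1 lower of 20 in shoot. PHO1, which loads phosphate into xylem, had 249.6, 175, 211 and 166 CPM in bz1728 and 352, 466, 448 and 420.2 CPM in wt (log2 fold change -1.07 ± 0.11, adjusted p = 1.8e-07). PHT1;4, an uptake transporter, had 78.6, 68.5, 66.5 and 70.9 CPM in bz1728 and 28.8, 40.4, 34.7 and 35.4 CPM in wt (log2 fold change 1.01 ± 0.10, adjusted p = 7.1e-10), and the SPX1 gene, a marker of low phosphate, had 78.3, 67.4, 49.4 and 86.6 CPM in bz1728 and 7.5, 27.2, 19.2 and 13.4 CPM in wt (log2 fold change 1.99 ± 0.30, adjusted p = 4.9e-05). PHT1;1 was lower in root (log2 fold change -1.19 ± 0.11, adjusted p = 1.5e-08) and higher in shoot (1.94 ± 0.48, adjusted p = 0.0058), but 49.9% of its 31-base words occur in other transcripts, so its level is uncertain.

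Root triterpenes are made by gene clusters expressed in roots, and all 6 tested genes of the thalianol and marneral clusters were higher, with summed levels of 1145, 1651, 1263 and 1426 TPM in bz1728 and 366, 457, 355 and 448 TPM in wt. THAS1 (AT5G48010), the thalianol synthase, had 398, 577, 438 and 511 CPM in bz1728 and 107, 129, 112 and 133 CPM in wt (log2 fold change 1.99 ± 0.25, adjusted p = 8.9e-06). MRN1, the marneral synthase, had 117, 230.4, 141 and 156 CPM in bz1728 and 59.3, 79.7, 57.9 and 75.8 CPM in wt (log2 fold change 1.23 ± 0.27, adjusted p = 0.0016). Tryptophan-derived glucosinolates and camalexin are defence compounds of this family of plants. Of 11 tested genes of the 2 together 5 were lower and 2 higher (1 without bz1728 replicate 1 or 4 or wt replicate 1, 2 or 4). CYP79B3, of their first step, had 23.8, 39.2, 35.1 and 32.3 CPM in bz1728 and 205, 146, 133 and 160.3 CPM in wt (log2 fold change -2.30 ± 0.14, adjusted p = 6.8e-11). Of 6 flavonoid genes tested 4 were lower, among them the isomerase gene TT5 (log2 fold change -1.21 ± 0.12, adjusted p = 8.1e-09). Of 14 genes of ER bodies and the myrosinase complex 6 were higher and 2 lower. The lectin genes JAL34 and PBP1 were among the largest gains in CPM: JAL34 ranged over 2218 to 2734 CPM in bz1728 and 1519 to 1603 CPM in wt (log2 fold change 0.65 ± 0.08, adjusted p = 2.2e-08) and PBP1 over 2009 to 2612 CPM in bz1728 and 1769 to 1786 CPM in wt (log2 fold change 0.37 ± 0.08, adjusted p = 0.00054). BGLU23, the main beta-glucosidase of root ER bodies, was lower, with 4936, 5538, 5080.3 and 6371 CPM in bz1728 and 7592, 7884, 7728 and 8032 CPM in wt (log2 fold change -0.51 ± 0.08, adjusted p = 1.7e-06).

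Genes of the root tip were higher in part. Of 10 genes of the root meristem and cap 7 were higher and none lower, and 4 were higher with at least 50 counts in 4 libraries. PLT2, a master factor of the stem cell niche, had 10.1, 14.4, 13.9 and 9.72 CPM in bz1728 and 5.75, 6.73, 4.81 and 5.64 CPM in wt (log2 fold change 1.06 ± 0.19, adjusted p = 1.7e-05). BRN1, a NAC factor of root cap maturation, ranged over 7.34 to 10.3 CPM in bz1728 and 3.3 to 6.03 CPM in wt (log2 fold change 0.84 ± 0.22, adjusted p = 0.0019). Division genes did not follow: of 13 genes of mitosis and cytokinesis 5 were lower and none higher, and of 8 DNA replication genes none was called, although 1, PCNA1, passed without bz1728 replicate 4 (adjusted p = 0.017). The mitosis count was 2 without wt replicate 1, and 3 without bz1728 replicate 4 or wt replicate 4.

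Of 17 auxin genes 8 were higher and 5 lower. GH3.3, which conjugates auxin, had 25.5, 20.1, 17.3 and 14 CPM in bz1728 and 1, 3.3, 1.88 and 1.44 CPM in wt (log2 fold change 3.24 ± 0.38, adjusted p = 7.5e-07), while the influx carrier gene LAX3 had 58.9, 62.4, 63.3 and 58.3 CPM in bz1728 and 141, 137, 139 and 119 CPM in wt (log2 fold change -1.14 ± 0.07, adjusted p = 9.2e-16). In the cytokinin response, the type-A regulator genes ARR3 and ARR7 moved apart: ARR3 had 39.7, 48.5, 45.8 and 46 CPM in bz1728 and 11.3, 9.67, 10.2 and 6.95 CPM in wt (log2 fold change 2.27 ± 0.15, adjusted p = 7.2e-15) and ARR7 had 5.33, 3.98, 6.85 and 3.72 CPM in bz1728 and 38.3, 25.6, 50.2 and 37.5 CPM in wt (log2 fold change -2.90 ± 0.19, adjusted p = 9.5e-13). Of 18 ethylene genes 8 were higher and 2 lower.

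Cytosolic heat shock genes, which answer misfolded proteins outside the ER, went down. Of 8 tested, 6 were lower and none higher, with summed levels of 364, 333, 369 and 392 TPM in bz1728 and 828, 859, 659 and 919 TPM in wt. HSP70 (AT3G12580) had 221, 191, 223 and 226 CPM in bz1728 and 608, 647, 480.4 and 659.6 CPM in wt (log2 fold change -1.48 ± 0.17, adjusted p = 2.2e-06). HSP90-1 had 139, 154, 142 and 172 CPM in bz1728 and 348, 361, 236 and 350.1 CPM in wt (log2 fold change -1.10 ± 0.21, adjusted p = 0.00051). DREB2A, a factor upstream of heat and drought genes, was lower too (log2 fold change -0.99 ± 0.18, adjusted p = 2.6e-05). In the photosynthesis list 11 of 20 tested genes were lower and none higher (1 higher without bz1728 replicate 2), for example PSBO1, of the oxygen-evolving complex, with 42.9 to 74 CPM in bz1728 and 95.2 to 119 CPM in wt (log2 fold change -0.84 ± 0.12, adjusted p = 2.8e-06).

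Some genes were detected in 1 genotype only. Apart from BZIP28 and its neighbours, 5 genes with at least 10 counts in every wt root library had none in bz1728 root. The cytochrome P450 genes CYP712A2 and CYP76G1 were at least 61.6-fold and 65.6-fold lower, AT1G52790, a 2-oxoglutarate-dependent oxygenase, at least 38.6-fold, AT1G68040, a methyltransferase family gene, at least 27.9-fold, and AT1G64795, of unknown function, at least 68.9-fold. The last was also called lower in shoot (adjusted p = 1.1e-05). CYP93D1, whose locus number adjoins that of CYP712A2, had 0.144, 0, 0 and 0 CPM in bz1728 and 27, 16.9, 24.4 and 15.5 CPM in wt, a wt to bz1728 ratio of 438 (95% counting interval 78.3 to 17300.0). CYP712A1 had 0.288, 0, 0.214 and 0 CPM in bz1728 and 74.3, 44.4, 79.8 and 35.8 CPM in wt, a ratio of 399 (95% counting interval 136 to 1940.0). Near AT1G52790 by locus number, AT1G52820, named after its values were seen, had 0, 0, 0.214 and 0 CPM in bz1728 and 80.3, 57.1, 98.6 and 47.1 CPM in wt. In the other direction, the receptor kinase family gene AT1G70130 and the AP2 family gene AT5G61890 had no counts in wt root and were at least 32.6-fold and 64-fold higher.

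Further large changes concerned carbon and wall genes. ICL, the isocitrate lyase of the glyoxylate cycle, had 102, 130.0, 73.4 and 161 CPM in bz1728 and 3, 6.61, 5.02 and 1.97 CPM in wt (log2 fold change 4.76 ± 0.43, adjusted p = 1.6e-07). UMAMIT17, of an amino acid transporter family, had 0.144, 0.137, 1.93 and 0.572 CPM in bz1728 and 28, 22.3, 28.4 and 30.4 CPM in wt (log2 fold change -5.48 ± 0.45, adjusted p = 1.2e-08). XTH21, a wall xyloglucan enzyme, had 2.59, 1.51, 2.78 and 1.14 CPM in bz1728 and 27.8, 28.1, 33.9 and 28.2 CPM in wt (log2 fold change -3.82 ± 0.19, adjusted p = 4.5e-18), opposite to its relative XTH12. By difference in mean CPM, the fatty acid dioxygenase gene DOX1 was among the genes that dropped most, with 550.4 to 779 CPM in bz1728 and 1878 to 2538 CPM in wt (log2 fold change -1.68 ± 0.13, adjusted p = 2.7e-09). ANNAT2, an annexin, was among those that gained most, with 691, 916, 556 and 855 CPM in bz1728 and 237, 247, 263 and 252 CPM in wt (log2 fold change 1.59 ± 0.12, adjusted p = 1.9e-09).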

How the data were processed

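Reads were trimmed with Trimmomatic 0.39 and quantified with kallisto 0.44.0, per the submitters' processing notes. The deposited tables hold expected counts, which are kallisto estimates of reads per transcript, and TPM, which the authors' tool scales by effective length to a library sum of 1e+06. The genome build and the annotation release are not stated in the sources used here. All 20 root libraries were fitted together on rounded counts with edgeR 4.0.16 under R 4.3.3, using TMM scaling, filterByExpr (count 10, total 15) and two-sided, robust quasi-likelihood F-tests. The method was also run on simulated counts with the same dispersion for every gene and few changed genes, unlike these data. That run does not test the p-values given here. A log2 fold change carries an approximate standard error, its size divided by the square root of F. A group without counts was set to 3 counts over the group, and such bounds and the 95% intervals cover counting error only. DESeq2 1.42.0, limma 3.58.1 and other settings were tried as alternatives. The 42 gene lists and 18 families hold members found in the annotation. Genes are named by rule: the mutated genes and the 3 loci on each side, all members of the UPR lists, up to 6 members of other lists and up to 3 of families by adjusted p, the 10 largest changes each way by fold and by CPM, and genes with counts in 1 group only. The members, lists and rules were chosen with earlier results of these data known. Gene names come from RefSeq, which holds 27445 of 27655 loci.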

Additional observations from a re-analysis of the deposited data

Results flagged for a closer look

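Each of 217 genes and 12 list sums was checked in both groups for a library far from the other 3, and 30 of 458 group sets met Dixon's criterion, 11 in bz1728 and 19 in wt. Chance flags about 1 in 20 such sets if the values are normally distributed. With no counts in the other 3 libraries, any count meets the criterion, as for JRG21, FAMT, LOX2, CYP93D1, AT5G07310 and AT1G52820. The libraries with most flags were wt replicate 3, with 8, and wt replicate 4, with 5.
A single library stood above the rest of bz1728 root for BAG7 in replicate 2 at 506 CPM (others 458 to 464), ERDJ3B in replicate 2 at 80.9 CPM (others 68.3 to 70.2), EXPA7 in replicate 4 at 128 CPM (others 81.5 to 88.2) and EXT4 in replicate 4 at 1885 CPM (others 1557 to 1602). The same held for FAR4 in replicate 4 at 53.2 CPM (others 35 to 37.7), CYP93D1 in replicate 1 at 0.144 CPM (others 0) and AT1G52820 in replicate 3 at 0.214 CPM (others 0). A single library stood below the rest of bz1728 root for AT1G61790 in replicate 3 at 58.6 CPM (others 66.2 to 67.4), CYP94B1 in replicate 1 at 18.6 CPM (others 29 to 30.6), NIR1 in replicate 2 at 271 CPM (others 337 to 346) and HSP70 in replicate 2 at 191 CPM (others 221 to 226). A single library stood above the rest of wt root for DER1 in replicate 1 at 55.3 CPM (others 41.2 to 42.6), JAZ5 in replicate 4 at 3.67 CPM (others 2.69 to 2.75), JRG21 in replicate 4 at 0.131 CPM (others 0) and FAMT in replicate 3 at 0.418 CPM (others 0). The same held for LOX2 in replicate 2 at 0.612 CPM (others 0), ADF8 in replicate 3 at 40.3 CPM (others 31.9 to 33) and FAR1 in replicate 3 at 98.6 CPM (others 71.1 to 74). So it was for CCoAOMT1 in replicate 3 at 836 CPM (others 707 to 728), NRT3.1 in replicate 1 at 54.3 CPM (others 39.1 to 41.2), XTH21 in replicate 3 at 33.9 CPM (others 27.8 to 28.2) and AT5G07310 in replicate 3 at 0.209 CPM (others 0). A single library stood below the rest of wt root for AT2G40960 in replicate 1 at 4.25 CPM (others 6.85 to 7.1), VSP2 in replicate 2 at 79.9 CPM (others 96.3 to 99.5), CYP94B1 in replicate 4 at 7.21 CPM (others 11.7 to 12.5) and VTL2 in replicate 2 at 5.87 CPM (others 9.7 to 10.3). The same held for LAX3 in replicate 4 at 119 CPM (others 137 to 141), HSP90-1 in replicate 3 at 236 CPM (others 348 to 361), WRKY40 in replicate 4 at 1.44 CPM (others 4.25 to 4.39) and KN in replicate 3 at 37.4 CPM (others 43.9 to 44.3).
The bz1728 effect was called unequal between root and shoot in 13 UPR genes, as log2 differences (root minus shoot). They were BZIP60 1.06, NAC062 1.09, NAC103 1.85, NAC089 0.88, BAG7 0.32, BI1 0.88, SEC31A 8.26, BIP3 12.50, ERDJ3A 1.61, TIN1 -1.14, SARA1A 1.71, UTR1 1.25 and ERO1 2.62. The BIP3 value was fitted with an empty wt root group and is no bound.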

How the results depend on the processing

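The root counts of 3417 genes higher and 3873 lower stayed within 1.5 times under every alternative run. They were 3192 and 3614 with DESeq2, 3081 and 3445 with limma on log2(TPM + 1), and 2676 and 3223 with at least 50 counts in 4 libraries, which tests fewer genes. No gene called in root changed sign under the alternatives run. Leaving out 1 library gave 2765 to 3248 higher and 3275 to 3833 lower in root, 1075 to 1360 higher and 1041 to 1470 lower in shoot, and 3436 to 4302 unequal effects. In shoot, scaling by library total gave 2348 higher, and limma on TPM gave 2931 higher and 823 lower, with a median log2 shift of 0.12 over all genes. These settings put 67.9% and 78.1% of shoot calls higher, against 47.1%; in root the share was 46.9% and 50.7% by library total. Without bz1728 replicate 2 the shoot count lower was 1041. The cause was not tested. Replicate numbers did not pair the root samples: same-numbered deviations correlated at 0.0239, -0.00515, 0.000405 and -0.0406. A replicate block gave 3482 higher and 3894 lower in root, 1396 and 1590 in shoot, and 4566 unequal effects. Of 3446 values of named genes under the alternatives, 27 lost their call, 3 gained one and none reversed; most losses were in AT3G10770, BHLH38 and BHLH39. Jasmonate synthesis had 7 genes higher with the stricter count filter, the lowest of its settings. Depth limits genes near 1 count, which is worth 0.122 to 0.283 CPM in these root libraries.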

Other observations

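Gene families outside the lists of the report also had members called in bz1728 root. Of 8 tested SWEET sugar transporter genes 6 were lower and 1 higher, with summed levels of 74.5, 67.7, 88 and 77.6 TPM in bz1728 and 136, 134, 157 and 154 TPM in wt. SWEET13 ranged over 0.549 to 3.02 CPM in bz1728 and 12.2 to 15.9 CPM in wt (log2 fold change -2.83 ± 0.27, adjusted p = 4e-10), and SWEET2, a vacuolar transporter, over 7.49 to 12.9 CPM in bz1728 and 24.4 to 31.8 CPM in wt (log2 fold change -1.64 ± 0.16, adjusted p = 1.6e-10). Of 15 fasciclin-like arabinogalactan protein genes 10 were lower and 2 higher, FLA8 among the lower ones with 28.9 to 37.4 CPM in bz1728 and 115 to 132 CPM in wt (log2 fold change -1.87 ± 0.08, adjusted p = 2.5e-20). Of 27 CASP-like genes 11 were lower and 2 higher, and their summed levels were 599 ± 52.5 TPM in bz1728 and 1025 ± 64.1 TPM in wt (SD, n = 4).

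Of 22 ERF and DREB transcription factor genes 11 were higher and 2 lower. ERF13 ranged over 5.78 to 14.7 CPM in bz1728 and 0.25 to 1.22 CPM in wt (log2 fold change 3.46 ± 0.48, adjusted p = 2.6e-06) and EBP over 67.3 to 103 CPM in bz1728 and 28.2 to 46.3 CPM in wt (log2 fold change 1.12 ± 0.14, adjusted p = 6.3e-07). Of 148 cytochrome P450 genes, 61 were lower and 29 higher. CYP78A8 ranged over 4 to 6.48 CPM in bz1728 and 30.7 to 43 CPM in wt (log2 fold change -2.67 ± 0.16, adjusted p = 8.1e-16), while CYP81D1 ranged over 18.8 to 24.9 CPM in bz1728 and 2.88 to 3.25 CPM in wt (log2 fold change 2.84 ± 0.18, adjusted p = 4.6e-15). Of 11 class III peroxidase genes 5 were lower and 1 higher. The latter, PRX52, known for lignin formation, ranged over 15.7 to 31.9 CPM in bz1728 and 0.25 to 2.32 CPM in wt (log2 fold change 4.32 ± 0.29, adjusted p = 1.9e-12).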
